A study of Mus musculus with 2 samples.

Results

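The immunoproteasome and peptide-loading genes were followed here as 10 named genes, matched by symbol to the transcript entries and by gene identifier to the gene table: Psmb8, Psmb9, Psmb10, Psme1, Psme2, Tap1, Tap2, Tapbp, Nlrc5 and Erap1. All 10 were found among 55536 annotated genes. They were measured in RNA of the chromatin fraction of bone-marrow-derived macrophages, primary phagocytes differentiated in culture from C57BL/6J marrow, after depletion of ribosomal RNA. There was 1 group: the cells had been given 100 ng/ml lipid A, the part of bacterial lipopolysaccharide that Toll-like receptor 4 recognises, for 12 h, were washed free of it for 12 h, and were given 100 ng/ml again for 75 min. The group held 2 libraries, called replicate 1 and replicate 2, made from 250 and 500 ng of RNA, with the same donor entry and no sex or age recorded. The labels number them as biological replicates but do not spell out separate cultures or animals, so the spread between them may be technical. Unstimulated cells and cells exposed once were not analysed here. What follows describes levels after the second exposure, not responses to it.

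Cells cut cytosolic and nuclear proteins with the proteasome, a barrel whose catalytic beta subunits sit in its inner rings. Interferon and inflammatory signals make cells build a variant, the immunoproteasome, in which Psmb8, Psmb9 and Psmb10 encode catalytic subunits that take the places of those encoded by Psmb5, Psmb6 and Psmb7, and the ring of PA28 alpha and beta (Psme1 and Psme2) can cap the barrel. Peptides are pumped into the endoplasmic reticulum by the transporter made of Tap1 and Tap2, trimmed there by the aminopeptidase Erap1, and loaded on MHC class I molecules with the help of tapasin (Tapbp), while Nlrc5 is a transcriptional activator of class I genes and of several genes of this set. In macrophages the pathway serves the display of internal and engulfed antigens to CD8 T cells.

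The alignment-based gene table held 18445009 expected counts in replicate 1 and 17686824 in replicate 2, of which 18388793 and 17640464 lay on annotated genes. Levels are given in TPM, a share of the library's transcripts in which counts are divided by effective length, so that genes can be compared within a library. Protein-coding genes took 25.93% and 27.98% of TPM in replicates 1 and 2. All 8 macrophage markers reached 1 TPM in both libraries, but 3 of them (Adgre1, Fcgr1 and Itgam) were more than 2-fold lower in replicate 2 by TMM-scaled counts, and the list summed to 1178 and 788 TPM in replicates 1 and 2. In the alignment-based table, marker lists of B cells, T and NK cells, dendritic cells, neutrophils and fibroblasts, 5 genes each, summed to between 0 and 1.85 TPM per library. Among their genes Cd79a, Blk, Cd3e, Ncr1, Gzma, Cd209a, Elane, Mpo, Cxcr2 and Pdgfra had 0 counts there in both libraries. The alignment-free table differed for some markers. It gave Cd3d 15.54 and 20.1 TPM in replicates 1 and 2. Cxcr2 had 275.7 and 262.3 counts in it, Mpo 76.04 and 57.8 and Pdgfra 154.3 and 205.2. The other genes named with 0 counts had 6 or fewer in it. The part of the macrophage marker difference in the replicate differences below was not tested.

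All 10 genes were transcribed, and over all annotated isoforms most of them lay well above the typical expressed gene. Their median was 59.98 TPM, from 60.33 TPM in replicate 1 and 59.62 in replicate 2 (SD 0.502 between library medians, n = 2). The median of the 9283 protein-coding genes with a mean of 1 TPM or more was 8.505 TPM. All but Erap1, 9 of 10, reached 10 TPM in both libraries, a level reached by 17.9% of all 22028 protein-coding genes and by 42.4% of those 9283. Ordered by mean TPM from the highest, the genes ran Nlrc5, Psme2, Tapbp, Tap1, Psme1, Psmb10, Psmb8, Psmb9, Tap2 and Erap1. Each step of this order held in both libraries. Only Nlrc5 and Psme2, the first pair, had ranges over the libraries that overlapped, while Psmb8 and Psmb9 were just 1.06-fold apart in their means. Among all protein-coding genes the set spread from rank 114 (Nlrc5) to rank 4628 (Erap1), with 5 members in the first 1000. These levels and ranks cover all annotated isoforms of a gene. With protein-coding isoforms alone the median of the members was 8.955 TPM, and 4 of them reached 10 TPM in both libraries. No value over all genes is given for that choice.

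**Figure D1:**
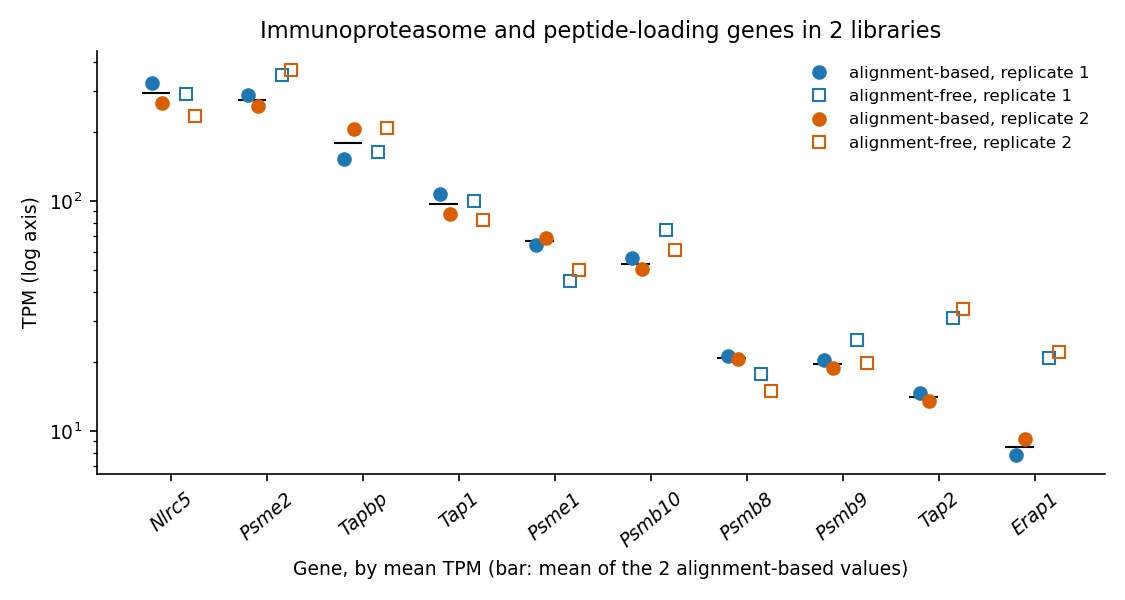
Level of each of the 10 genes in TPM (log axis) in replicate 1 (blue) and replicate 2 (orange), with filled circles for the alignment-based table, a bar for their mean and open squares for the alignment-free table. Nlrc5, Psme2 and Tapbp lie above 150 TPM at every point, and the largest distances between the programs are those of Tap2 and Erap1, which the alignment-free table places higher.

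The catalytic immunosubunits differed among themselves, and each stood in its own relation to the subunit it replaces. Psmb10 (ENSMUSG00000031897.9, chromosome 8, 105935735 to 105938444, minus strand) had 56.35 and 50.34 TPM in replicates 1 and 2, from 437 and 349 counts. Psmb8 (ENSMUSG00000024338.15, chromosome 17, 34197721 to 34201454, plus strand) had 21.1 and 20.47 TPM, from 427.15 and 393 counts. Psmb9 (ENSMUSG00000096727.3, chromosome 17, 34181987 to 34187764, minus strand) had 20.29 and 18.78 TPM, from 605.62 and 491.38 counts. Psmb10 was thus the highest of the 3 in both libraries, and the values of Psmb8 and Psmb9 lay close together. Coordinates throughout are those of mm10 with the GENCODE M21 annotation.

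Psmb8, with 21.1 and 20.47 TPM in replicates 1 and 2, was set against 2.28 and 3.07 TPM of Psmb5, the constitutive chymotrypsin-like subunit. The log2 ratio of Psmb8 over Psmb5 was 3.21 in replicate 1 and 2.74 in replicate 2 (2.97 ± 0.33, SD, n = 2), or 9.25-fold and 6.67-fold. By the alignment-free table Psmb8 was 5.86-fold and 3.87-fold above Psmb5. Psmb5 rested on 25 counts in replicate 1 (95% exact Poisson interval 16.18 to 36.9) and 31 in replicate 2 (21.06 to 44.0). Such intervals cover counting error only, since the files hold no molecular identifiers. Psmb10 likewise exceeded Psmb7, the constitutive trypsin-like subunit, which had 15.1 and 17.66 TPM, by a log2 ratio of 1.90 and 1.51 (1.71 ± 0.27, SD, n = 2). The pair of Psmb9 and Psmb6, the caspase-like subunit, ran the other way: Psmb9 had 20.29 and 18.78 TPM and Psmb6 64.26 and 86.23 TPM, a log2 ratio of -1.66 and -2.20 (-1.93 ± 0.38, SD, n = 2). Summed, the immunosubunits had 97.74 and 89.59 TPM and the constitutive subunits 81.64 and 107.0 TPM, a log2 ratio of 0.26 in replicate 1 and -0.26 in replicate 2. The sums therefore had no common direction in the libraries, although each pair did.

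In the alignment-based table the excess of Psmb8 over Psmb5 lay in isoforms annotated as retaining introns. Isoforms annotated as protein coding gave Psmb8 1.94 and 0.59 TPM in replicates 1 and 2, against 2.28 and 3.07 TPM for Psmb5, a log2 ratio of -0.23 and -2.38 (-1.31 ± 1.52, SD, n = 2) in place of 3.21 and 2.74. The same isoforms of the alignment-free table gave Psmb8 3.78 and 1.65 TPM against 3.01 and 3.83 TPM for Psmb5, higher in replicate 1 and lower in replicate 2. The alignment-based values of Psmb8 over these isoforms rested on few counts, 28.34 and 12.75 on Psmb8-201 and 7.24 and 0 on Psmb8-203. Psmb5 has 2 annotated isoforms, both protein coding and none with a retained intron, so the annotation gave its reads no such place. With protein-coding isoforms alone Psmb10 stayed above Psmb7, at 9.42 and 7.31 against 2.46 and 2.05 TPM, and Psmb9 below Psmb6, at 4.54 and 3.36 against 15.65 and 20.98 TPM. By the alignment-free table Psmb9 was likewise below Psmb6 over these isoforms, but Psmb10 had 8.82 and 8.30 TPM against 9.05 and 5.94 TPM for Psmb7, with no common direction. The summed log2 ratio over these isoforms was -0.36 in replicate 1 and -1.21 in replicate 2. The restriction to these isoforms was chosen after the data were seen.

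**Figure D2:**
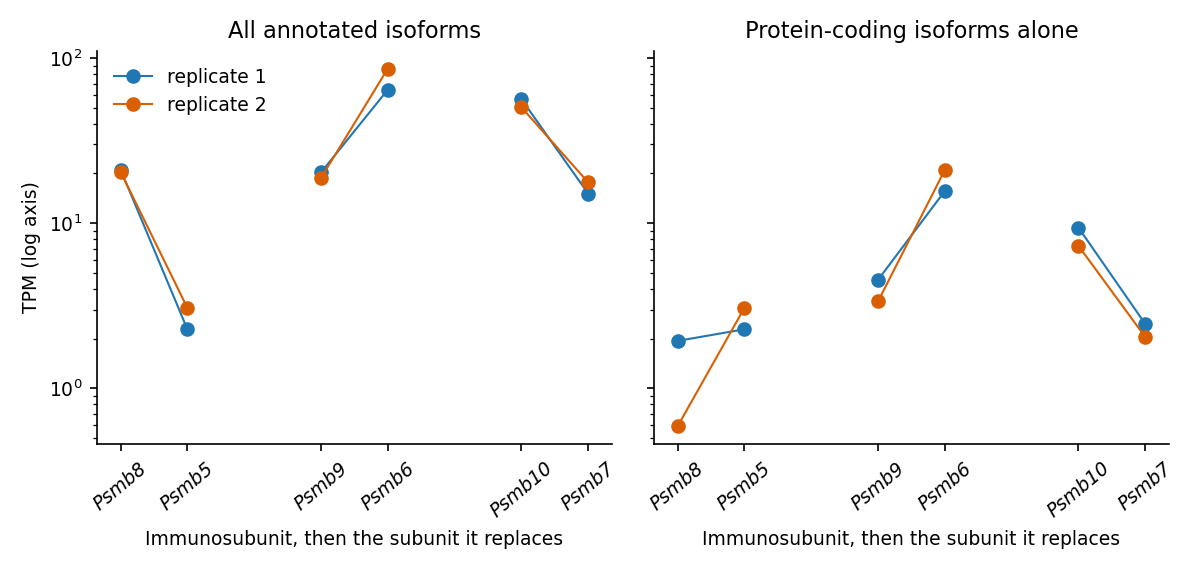
Each immunosubunit (left point of a pair) and the constitutive subunit it replaces (right point) in TPM on a log axis, joined within replicate 1 (blue) and replicate 2 (orange) of the alignment-based table, over all annotated isoforms (left panel) and over protein-coding isoforms alone (right panel). The lines of Psmb9 and Psmb6 rise and those of Psmb10 and Psmb7 fall in both panels, whereas those of Psmb8 and Psmb5 fall on the left and rise on the right.

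The lists of other proteasome genes had medians below the 59.98 TPM of the 10 genes, with single genes above it. Of 11 other subunits of the core barrel, 9 reached 10 TPM in both libraries, with a median of 21.62 TPM and a range from 5.04 TPM (Psma2) to 57.47 TPM (Psma3). By the alignment-free table Psma2 was not low, at 26.62 and 30.3 TPM against a median of 29.59 TPM for that list. Of 18 genes of the 19S cap, which unfolds tagged proteins, 17 reached 10 TPM in both, with a median of 31.73 TPM, from 10.47 (Psmd12) to 75.93 (Psmc6). Among the assembly factors Pomp, a chaperone of core assembly, had 21.87 and 20.25 TPM, close to the median of the core subunits, and Psmg1, another assembly chaperone, had 3 and 5 counts.

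Of the PA28 activator, both genes were high and Psme2 was the higher. Psme2 (ENSMUSG00000079197.10, chromosome 14, 55587441 to 55591113, minus strand) had 289.53 and 258.66 TPM in replicates 1 and 2, from 1655.08 and 1624.72 counts. Psme1 (ENSMUSG00000022216.17, chromosome 14, 55578123 to 55581529, plus strand) had 64.31 and 68.9 TPM, from 841 and 850 counts. The genes lie 5911 bases apart on opposite strands, and their products assemble into one ring. Psme2 was 4.50-fold and 3.75-fold above Psme1 in TPM, and 7.84-fold and 7.39-fold by the alignment-free table. Part of the alignment-based distance came from 1 short isoform. Psme2-203, of 185 bases in 3 exons and annotated as retaining an intron, had 15.6 and 6.58 counts, which its effective length of 12.58 and 15.03 bases turned into 72.4 and 28.3 TPM. Without it Psme2 had 217.1 and 230.3 TPM, 3.38-fold and 3.34-fold above Psme1. The alignment-free distance holds Psme2-203 too, at 86.68 and 87.25 TPM from 110.3 and 105.9 counts. The isoform is shown because it moved the level of Psme2 and its direction between the libraries. It spans chr14:55589998-55590895 on the minus strand of mm10, and the capitals mark the 35 bases outside every exon of the protein-coding isoforms.
Psme2-203: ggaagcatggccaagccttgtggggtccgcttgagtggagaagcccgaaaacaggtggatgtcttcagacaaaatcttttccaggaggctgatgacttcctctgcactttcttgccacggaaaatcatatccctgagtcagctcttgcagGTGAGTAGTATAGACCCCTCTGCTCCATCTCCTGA

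Of the other activators and the inhibitor, Psme3 and Psmf1 were below Psme1 and Psme2. Psme3, which encodes PA28 gamma of the nucleus, had 12.76 and 13.27 TPM, so that Psme1 was 5.04-fold and 5.19-fold and Psme2 22.7-fold and 19.5-fold higher. By the alignment-free table Psme1 was 1.39-fold and 1.69-fold and Psme2 10.9-fold and 12.5-fold above Psme3. Psme4, which encodes the activator PA200, had 80.87 and 64.01 TPM, between Psme2 and Psme1 in replicate 1 and under both in replicate 2. Without alignment Psme4 was above Psme1 in both libraries, 2.71-fold and 2.15-fold. Psmf1, which encodes the proteasome inhibitor PI31, had 3.59 and 3.61 TPM.

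The window around the start of Psme1 held a match to the core of the interferon-stimulated response element. Windows of 250 bases before and 50 bases after a RefSeq start (GRCm38.p6) were searched on both strands for its core, GAAA followed by any 2 bases and GAAA, and 3.44% of 32851 windows held it. Of the 10 genes 8 had a window, and it was found in those of Psme1 and Erap1, which are shown with the match in capitals. Both matches lay close to the start, the first base at position 9 in Psme1 and at position -4 in Erap1, counted with the start as 0.
Psme1, chr14:55578244-55578543, plus strand: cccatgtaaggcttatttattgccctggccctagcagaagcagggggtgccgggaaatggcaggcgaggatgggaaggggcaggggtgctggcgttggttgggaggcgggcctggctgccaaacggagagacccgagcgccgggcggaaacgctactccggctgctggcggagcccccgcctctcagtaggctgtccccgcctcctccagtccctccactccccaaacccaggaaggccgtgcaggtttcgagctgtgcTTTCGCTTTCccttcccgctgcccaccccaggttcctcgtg
Erap1, chr13:74639603-74639902, plus strand: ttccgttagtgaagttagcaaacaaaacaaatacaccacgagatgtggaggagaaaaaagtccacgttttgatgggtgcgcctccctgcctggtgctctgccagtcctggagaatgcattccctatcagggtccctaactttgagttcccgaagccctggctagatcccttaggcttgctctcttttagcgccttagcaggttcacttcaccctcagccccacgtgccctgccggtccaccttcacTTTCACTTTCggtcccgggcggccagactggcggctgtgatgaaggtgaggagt

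Neither match is a site shown to be bound, and the RefSeq starts need not be those used in these cells. The gamma-activated site TTCNNNGAA, in 8.3% of windows, was found in Psmb8 among the members, with its first base at position -97. The kappaB consensus, in 8.46% of windows, had no match in the 8 windows, which says only that its letters are not in them. The window of Psmb8 is given with the match in capitals.
Psmb8, chr17:34197945-34198244, plus strand: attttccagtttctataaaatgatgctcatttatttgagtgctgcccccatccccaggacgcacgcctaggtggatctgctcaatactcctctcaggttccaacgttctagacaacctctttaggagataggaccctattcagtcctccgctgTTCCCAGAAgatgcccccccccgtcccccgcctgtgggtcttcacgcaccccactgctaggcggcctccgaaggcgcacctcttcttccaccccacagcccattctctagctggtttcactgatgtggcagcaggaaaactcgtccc

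The peptide transporter genes were unequal, with Tap1 well above Tap2. Tap1 (ENSMUSG00000037321.17, chromosome 17, 34187553 to 34197225, plus strand) had 107.22 and 87.19 TPM in replicates 1 and 2, from 4980.38 and 3731.62 counts. Tap2 (ENSMUSG00000024339.12, chromosome 17, 34203527 to 34216321, plus strand) had 14.62 and 13.47 TPM, from 603.71 and 500.95 counts. Tap1 was 7.33-fold and 6.47-fold above Tap2 in TPM. The alignment-free table put Tap2 at 30.99 and 33.96 TPM and the gap at 3.21-fold and 2.42-fold. Of that higher Tap2 level 42.7% was given to Tap2-205, a processed transcript of 344 bases that the alignment-based table left at 0 counts in both libraries.

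Tap1, Psmb9, Psmb8 and Tap2 lie together in the class II region of the mouse MHC, within 34335 bases of chromosome 17 (34181987 to 34216321). Psmb9 and Tap1 point away from each other and their annotated spans overlap by 212 bases, while Psmb8 begins 495 bases past the end of Tap1. From this common stretch Tap1 had 107.22 and 87.19 TPM and Psmb9 20.29 and 18.78 TPM, 5.28-fold and 4.64-fold apart, and without alignment they were 4.01-fold and 4.17-fold apart. The RefSeq starts of the pair are 226 bases apart, so that 275 bases belong to the windows of both. The window of Tap1 is printed to show that shared stretch, in capitals.
Tap1, chr17:34187306-34187605, plus strand: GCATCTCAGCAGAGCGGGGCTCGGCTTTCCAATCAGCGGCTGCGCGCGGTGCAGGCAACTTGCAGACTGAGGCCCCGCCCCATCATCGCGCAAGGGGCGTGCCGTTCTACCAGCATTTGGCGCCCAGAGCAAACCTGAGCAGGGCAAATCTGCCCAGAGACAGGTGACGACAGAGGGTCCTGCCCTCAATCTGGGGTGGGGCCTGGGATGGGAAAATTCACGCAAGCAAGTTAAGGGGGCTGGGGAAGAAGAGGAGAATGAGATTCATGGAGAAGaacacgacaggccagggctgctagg

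The protein-coding genes on either side of this cluster were far lower. H2-DMb1, a chaperone gene of class II loading, had 1.97 and 1.84 TPM, and H2-Ob, a class II modulator gene, had 2 counts in each library or 0.14 and 0.10 TPM. H2-Ob is quoted with a limit, since the alignment-free table gave it 10.05 and 13.9 TPM. Gm20496, antisense to Psmb8 and Tap2, had 3.85 counts in replicate 1 and 0 in replicate 2, and Gm15821, a long noncoding gene within Tap2 on the other strand, had 6.39 and 4.60 TPM. Whether reads were counted by strand is not stated in the labels or file headers. Reads within the bases that genes share on opposite strands, as Psmb9 and Tap1 do, may therefore have been given to either gene. Overlaps of this kind involve 9 of the 10 genes, all but Psme2. For Psmb9 and Tap1 the deposited posterior SD of the gene count was 0.76 counts in replicate 1 and 0.58 in replicate 2.

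**Figure D3:**
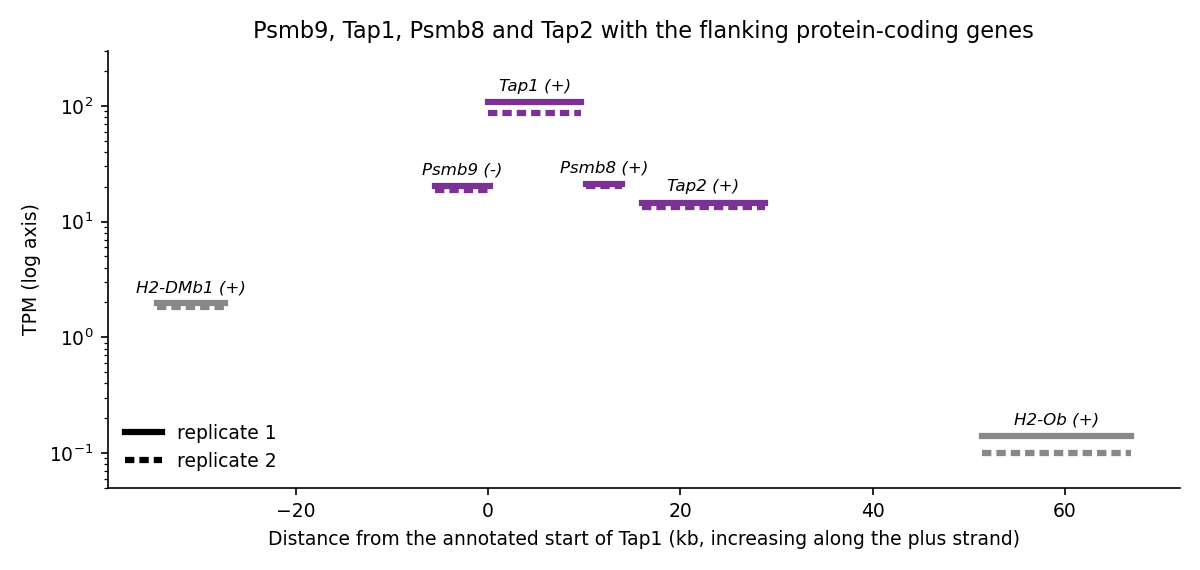
Annotated spans of Psmb9, Tap1, Psmb8 and Tap2 (purple) and of the nearest protein-coding genes H2-DMb1 and H2-Ob (grey), drawn to scale by distance from the start of Tap1 in kb, at their TPM on a log axis in replicate 1 (solid) and replicate 2 (dashed); plus and minus signs give the strand. The purple genes lie between 13.47 and 107.22 TPM and the grey ones at or below 1.97 TPM.

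Tapasin was among the highest genes of the set, and its relative was among the lowest of the class I assembly genes. Tapbp (ENSMUSG00000024308.15, chromosome 17, 33915899 to 33929292, plus strand), which bridges the transporter and empty class I molecules, had 151.34 and 205.91 TPM in replicates 1 and 2, from 4018.05 and 4941 counts. Tapbpl, which encodes a tapasin-related peptide editor outside the loading complex, had 3.59 and 4.96 TPM, 42.2-fold and 41.5-fold lower. Tapbp shares 3422 bases on its own strand with Zbtb22, which had 8.63 and 11.44 TPM. Its flanks Daxx and Rgl2 were high too, Daxx at 105.1 and 126.4 TPM and Rgl2 at 138.2 and 109.5 TPM.

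Of 5 other class I assembly genes, 3 reached 10 TPM in both libraries, with a median of 32.41 TPM. B2m, the light chain of class I molecules, was the highest at 63.4 and 70.05 TPM. The lectin chaperones followed, Canx with 32.16 and 43.57 TPM and Calr with 34.25 and 30.58 TPM. Pdia3, the oxidoreductase of the loading complex, had 7.56 and 7.76 TPM, and Tapbpl was the lowest. The alignment-free table gave Pdia3 18.04 and 18.41 TPM. The class I heavy chains H2-K1 and H2-D1, which these genes serve, stood above all 10 members, H2-K1 at 1549.18 and 1772.76 TPM and H2-D1 at 626.04 and 699.1 TPM. Both belong to a multigene family with near-identical stretches, and their values are uncertain to that extent.

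Erap1 (ENSMUSG00000021583.7, chromosome 13, 74639568 to 74693201, plus strand), which trims peptides to the length class I molecules bind, was the lowest of the set, with 7.85 and 9.23 TPM from 547.28 and 482.2 counts. Its mean of 8.54 ± 0.976 TPM (SD, n = 2) was close to the 8.505 TPM median of the 9283 expressed protein-coding genes. Lnpep, an aminopeptidase that trims peptides in endosomes for cross-presentation, had 50.81 and 42.55 TPM, 6.47-fold and 4.61-fold above Erap1. By the alignment-free table Erap1 had 20.74 and 22.09 TPM and the gap was 2.68-fold and 2.35-fold. Of 6 other peptidases acting on antigenic peptides, Lnpep among them, 4 reached 10 TPM in both libraries. They ran from Npepps, the puromycin-sensitive aminopeptidase, at 78.4 and 92.7 TPM to the cytosolic oligopeptidase Thop1 at 28 and 10 counts. The alignment-free table put Npepps at 219.2 and 256.2 TPM.

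Nlrc5, the activator, was the highest gene of the set by mean TPM in the alignment-based table, with a range that overlapped that of Psme2. The alignment-free table put Psme2 first, at a mean of 361.4 against 262.1 TPM. Nlrc5 (ENSMUSG00000074151.13, chromosome 8, 94434356 to 94527272, plus strand) had 324.49 and 266.63 TPM in replicates 1 and 2, from 19461 and 13524 counts, the most counts of any member. Ciita, its relative and the master activator of class II genes, had 11.76 and 18.83 TPM, so that Nlrc5 was 27.6-fold and 14.2-fold higher. The alignment-free values gave 16.3-fold and 8.46-fold. In replicate 2 Nlrc5 was the lower and Ciita the higher of its 2 values, which makes the gap smaller there. Part of the Nlrc5 level lay on short isoforms. Nlrc5-209, of 346 bases, had 49.4 and 50.9 TPM from 89.93 and 94.69 counts. Protein-coding isoforms alone gave Nlrc5 148.0 and 113.5 TPM, still the highest mean of the set. The same values for Ciita are not given here. Irf1, an interferon-induced activator of several of these genes, had 358.32 and 374.42 TPM. Of 11 regulators of class I and class II genes 7 reached 10 TPM in both libraries, with Rfxap, a subunit of the RFX complex with which Nlrc5 and Ciita act, the lowest by alignment-based mean at 0.63 and 1.49 TPM, although Rfxank of the same complex was lower in replicate 2 (1.42 and 0.84 TPM) and by the alignment-free mean.

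The genes around the members outside the cluster were mostly lower than the members themselves. Psmb10 lies whole within Gm16156 on the other strand, which had 8 and 18.11 counts against 437 and 349 for Psmb10, and its flanks Ctrl and Lcat had 13 to 30 counts. Emc9, which overlaps the end of Psme1 by 14 bases and lies between Psme1 and Psme2, had 24 and 35 counts. Fitm1 on the other side of Psme1 had 0 counts, whereas Rnf31 beside Psme2, a subunit of a linear ubiquitin ligase, had 55.77 and 77.72 TPM. Erap1 shares 834 bases at its end with Cast, the calpain inhibitor gene on the other strand, which was higher than Erap1 at 23.51 and 23.59 TPM. Its nearest other neighbours were at or near 0, Zfp825 with 23 and 16 counts and Pcsk1 with 0. Nlrc5 shares 748 bases with the noncoding 9330175E14Rik on the other strand, at 5.73 and 4.99 TPM, and its flanks Herpud1 (14.41 and 7.62 TPM) and Cpne2 (57.70 and 81.63 TPM) were below it. Gm19412, antisense to Tapbp, had 35.95 and 45 counts against 4018.05 and 4941 for Tapbp.

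Chromatin-bound RNA holds transcripts still being made and spliced, and much of the signal of several members was assigned to isoforms annotated as retaining introns. The median share of a member's TPM on such isoforms was 76.22% (73.73% in replicate 1 and 77.11% in replicate 2, SD 2.39, n = 2). Over the 5998 protein-coding genes at 1 TPM with such an isoform the median was 45.06%. In 6 of 10 members the share was above 50% in both libraries, against 35.6% of those 5998 genes. These 6 were Psmb8 (90.81% and 97.12%), Tap2 (88.17% and 89.83%), Psme1 (77.01% and 89.66%), Psmb9 (75.58% and 82.11%), Psme2 (78.75% and 77.74%) and Tap1 (71.89% and 76.49%). These are all 4 genes of the chromosome 17 cluster and both PA28 genes. The high share was not particular to the members. Of the constitutive subunits, Psmb6 had 75.65% and 75.67% and Psmb7 83.7% and 88.4%, while Psmb5 has no such isoform. Only 5 of 10 members were above 50% in both libraries by the alignment-free table, since Tap2 had 41.3% and 36.44% there. The share over all genes by that table is not given here.

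The other 4 members had most of their TPM elsewhere. Erap1 had 33.93% and 41.93% on retained-intron isoforms and Psmb10 39.88% and 35.13%, with 43.40% and 50.35% of Psmb10 on 1 processed transcript, Psmb10-203, of 426 bases. Nlrc5 had 24.30% and 26.45% and Tapbp 20.58% and 21.69%. By counts instead of TPM, Nlrc5 and Tapbp were at 8.18% and 5.62% in the mean, and 89.65% of Nlrc5 counts lay on protein-coding isoforms, most of them on Nlrc5-207 of 7578 bases. For Nlrc5 and Tapbp the shares by TPM and by counts therefore describe different quantities, a share per length and a share of reads.

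**Figure D4:**
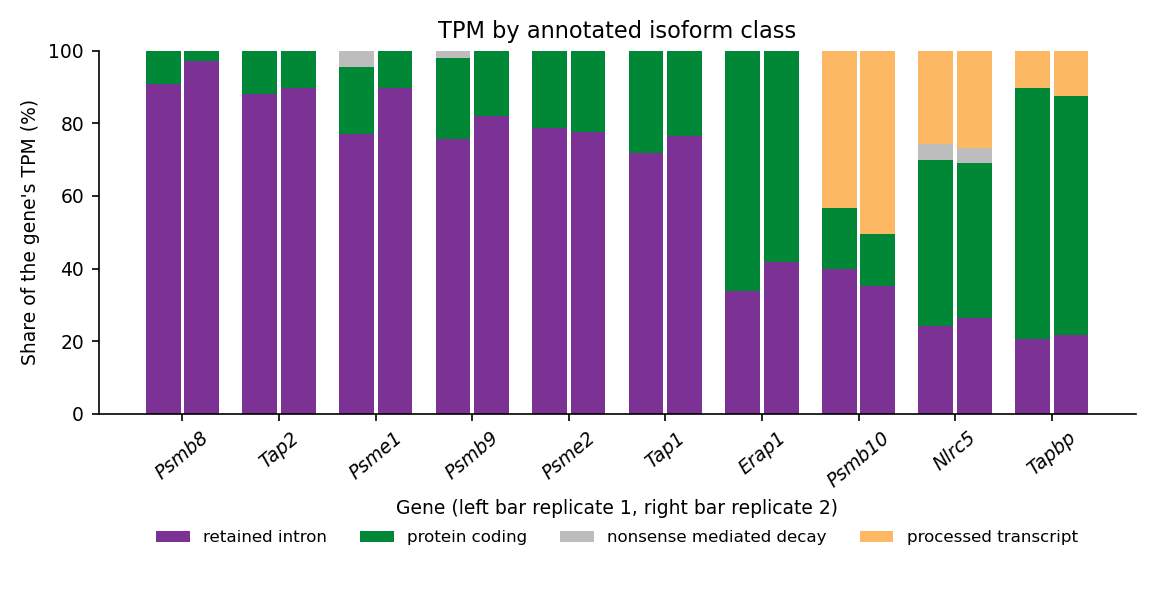
Share of each gene's TPM (%) by annotated isoform class, with replicate 1 as the left and replicate 2 as the right bar of each gene, sorted by the retained-intron share. Retained-intron isoforms fill between 71.89% and 97.12% of the bars of Psmb8, Tap2, Psme1, Psmb9, Psme2 and Tap1 and less than 42% of those of Erap1, Psmb10, Nlrc5 and Tapbp.

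A retained-intron label says little about how much intron an isoform holds, and the members differed widely in this. Psmb9-201, which took 54.26% and 50.91% of the TPM of Psmb9, has 1660 of its 2884 bases (57.6%) outside the exons of protein-coding isoforms. Of Psmb8, the leading isoform Psmb8-205, with 33.02% and 43.84% of its TPM, has 190 of 1234 bases (15.4%) outside them, and Psmb8-202, with 30.27% and 36.85%, has 1064 of 1907 (55.8%). Tap1-202, the leading isoform of Tap1 by mean TPM, has 1310 of 2638 (49.7%). In contrast Tap2-202, the isoform behind the high share of Tap2, has 162 of 2561 bases (6.33%) outside coding-isoform exons, and Nlrc5-203 has 2 of 1727. Together the retained-intron isoforms cover 82.9% of the non-exonic span of Psmb8 but 1.75% of that of Tap2 and 0.329% of that of Nlrc5. The share of Tap2 is therefore carried by an isoform made almost wholly of exonic bases, and the shares of different members do not measure the same amount of intron.

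No member differed by more than 2-fold between the 2 libraries. The log2 ratio of replicate 2 over replicate 1, from expected counts scaled by TMM, was past 2-fold in 0 of 10 members and in 7.25% of the 13247 genes that had 10 counts or more in both libraries. Over 10 genes a count of 0 is near that share and sets the members apart in nothing. With 1 library on each side the ratio compares 2 libraries of 1 condition and has no test. Tapbp was the furthest up, at 0.42 (95% counting interval 0.36 to 0.49), and Nlrc5 the furthest down, at -0.40 (-0.43 to -0.37), followed by Tap1 at -0.29 (-0.35 to -0.23). The median ratio of the members was -0.10. The median size of the ratio, sign left aside, was 0.32 over all 13247 genes, and among the members Tapbp and Nlrc5 exceeded it. The counting interval left out 0 in 6 members, so that counting error alone does not cover those differences. It did so only narrowly in Psmb9 (upper bound -0.0030), Psme1 (lower bound 0.0026) and Psme2 (lower bound 0.00046). These intervals take the scaling as fixed, so which members leave out 0 can change with the scaling. Under TMM the interval included 0 in Psmb8 (0.0068), Psmb10, Tap2 and Erap1. Psme2 had a positive ratio (0.10) although its TPM was lower in replicate 2, the short isoform named above being the larger in replicate 1. In bulk RNA a smaller number of cells of a type and less RNA per cell cannot be told apart.

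**Figure D5:**
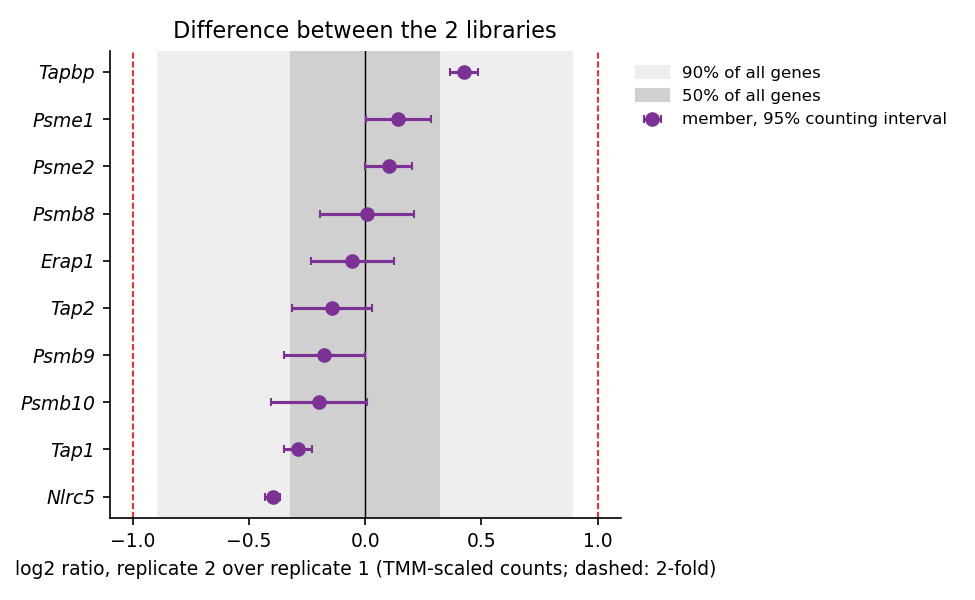
Log2 ratio of replicate 2 over replicate 1 of each gene after TMM scaling, with 95% counting intervals; the grey bands hold 50% and 90% of the 13247 genes compared and the dashed lines mark 2-fold. Every member lies inside the 90% band, with Tapbp (0.42) and Nlrc5 (-0.40) at the ends.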

How the data were processed

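Ribosomal-RNA-depleted total RNA of the chromatin fraction was sequenced in 2 libraries of 1 group. The deposited expected counts and TPM per gene and transcript came from alignments to mm10 with GENCODE M21, per the submitters' description files. Per the file headers, their column names match RSEM output. Program versions: not given in the sources used here. Estimated counts and TPM of the authors' second table, which was made without alignment and carries kallisto's column names, were summed per gene. Names and coordinates came from the same annotation, and promoter windows from RefSeq (GRCm38.p6), which matched 8 of 10 members; Tap2 and Nlrc5 had no entry.

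Levels are deposited TPM with the SD of 2 libraries. Rounded expected counts of annotated genes were scaled by TMM (edgeR 4.0.16) for the ratio between libraries, with at least 10 counts in each and 95% counting intervals (exact binomial). This step was tested on simulated data. DESeq2 1.42.0 size factors, total counts, no filter, the alignment-free table, TPM over protein-coding genes, each library alone and other isoform sets were alternatives. Neither 1 group nor 2 libraries allows a test of conditions, so no p-value is given. A count of 0 allows up to 3 counts. The deposited posterior SD of a member's gene count was at most 0.510% of that count. The division of a gene's reads between isoforms was less certain, to an extent that differed by isoform. In replicate 1 the SD was 7.19 on 7.24 counts for Psmb8-203 and 62.13 on 169.9 for Tap1-201, but 4.88 on 496.4 for Psmb9-201.

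The members and gene lists were chosen with earlier results of these data known. Named are all members, the subunits they replace, Psme3, Psme4, Psmf1, Pomp, the class I assembly genes, Lnpep, Irf1, Ciita, the highest and lowest gene of each list by mean TPM, genes that overlap a member and the nearest protein-coding genes. Some genes of this rule are not reported here. No gene of similar pattern is named, because 1 condition gives no pattern.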

Additional observations from a re-analysis of the deposited data

How the results depend on the processing

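The median level of the members was 57.79 TPM by the alignment-free table, 222.9 TPM with TPM taken over protein-coding genes and 8.955 TPM with protein-coding isoforms alone, in place of 59.98 TPM (59.62 to 60.33 with either library left out). The median retained-intron share was 69.27% by expected counts, 63.41% by the alignment-free table, 73.76% without isoforms under 50 effective bases and 73.73% to 77.11% with either library left out, in place of 76.22%. The summed log2 ratio of immunosubunits over constitutive subunits was -0.79 with protein-coding isoforms alone, and -0.85 with these in the alignment-free table, in place of 0.0020, and -0.26 to 0.26 with either library left out. With protein-coding isoforms alone Psmb8 over Psmb5 turned to -1.31 ± 1.52 (SD, n = 2), and to -0.44 ± 1.09 in the alignment-free table, in place of 2.97 ± 0.33. Protein-coding isoforms hold fewer of the reads by construction, and the cause of the other shifts was not tested. The isoform choices and the alternatives for the count of shares over 50% were made after seeing the data. The count of members at 10 TPM was 4 with protein-coding isoforms alone and 9 or 10 under the other alternatives run. Members over 50% in retained-intron share numbered 5 by the alignment-free table and 6 under the other alternatives run, and those past 2-fold between the libraries 0 under each scaling, filter and program. Shares over all genes under these alternatives are not given here, so these counts cannot be set against a background. The alignment-free table put Psme2 first (361.4 TPM) and Psmb8 last (16.23 TPM). No paired analysis was possible because there is only 1 group. Depth limits several named genes, at 31 counts or fewer in each library of the alignment-based table. Among them are Psmb5, Psmg1, Thop1, H2-Ob, Ctrl, Lcat, Zfp825, H2-DMb1 (30.89 and 27.53 counts) and Rfxap (16 and 21 counts). Depth limits them more than any member as a whole gene, whose lowest count was 349. It also limits the protein-coding isoforms of Psmb8, at 28.34 counts or fewer each in the alignment-based table.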

Other observations

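Several genes beside the members were divided very differently by the 2 programs, and they are given here as values, picked after they were seen. Emc9, between Psme1 and Psme2, had 24 and 35 expected counts (1.77 and 2.65 TPM) in the alignment-based table but 698.6 and 704.9 estimated counts (18.66 and 21.92 TPM) in the alignment-free table. H2-Ob, past the end of Tap2, had 2 counts in each library in the alignment-based table but 263 and 328 in the alignment-free table. Mir7072, a microRNA gene of 60 bases within Nlrc5, had 0 counts in the alignment-based table and 28 and 17 in the alignment-free table, or 70.4 and 46.7 TPM.

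Among the members the programs were furthest apart for Erap1 and Tap2. The alignment-free table placed 8.06 and 8.48 TPM of Erap1 on Erap1-203, a protein-coding isoform of 354 bases with 0 counts in the alignment-based table, and 13.3 and 14.4 TPM of Tap2 on Tap2-205. Within Psme2 it gave 51.07 TPM in each library to Psme2-206, which has 0 counts in the alignment-based table, and close to 0 to the protein-coding Psme2-201, which the alignment-based table set at 36.43 and 29.80 TPM.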
